A study of Drosophila melanogaster with 12 samples.

Results

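The level of histone H3 acetylated at lysine 23 (H3K23ac) was compared with the level of total H3 within ovaries of Drosophila melanogaster in which enok was knocked down (enok_KD), to find which piRNA clusters and repeats are rich or poor in the mark when Enok is reduced, and how far the 2 replicates differ. The libraries were those labelled as H3 or H3K23ac ChIP-seq of enok_KD, 4 of the 12 libraries of the series, with 2 replicates for each antibody. The matched 4 libraries of the control knockdown (GFP_KD) were used only to test where the enok_KD ratio differed from the control, and the 4 input libraries were not used here. Females of enok_KD carried the shRNA transgene P{TRiP.HMS02634}attP2 and those of GFP_KD carried P{VALIUM20-EGFP.shRNA.1}attP2. Both knockdowns carried 2 drivers together, tj-GAL4 for somatic cells of the ovary and GAL4::VP16-nos.UTR for the germline. Both are recorded as kept at 29 °C for 2 to 3 days, with wet yeast for the last 1 to 2 days, as adult females of 2 to 3 days. The study's methods give this temperature and time for RNAi with another driver, MTD-Gal4. A single shRNA line represents each knockdown, and each library comes from pooled whole ovaries, so that a change in the proportion of cell types and a change in each cell cannot be told apart. The tables hold piRNA clusters and repeats only, so neither the enok transcript nor markers of the ovary could be checked.

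Enok is the fly member of the MYST family of histone acetyltransferases that acetylates H3 at lysine 23, and acetylation of this kind is found at transcribed chromatin. piRNA clusters are loci rich in transposon remnants from which precursors of piRNAs are transcribed, and piRNAs guide the silencing of transposons in the gonad. In the fly, most germline clusters are embedded in heterochromatin and are transcribed from both strands with the help of the HP1 homologue Rhino, whereas flamenco is transcribed from 1 strand in the somatic follicle cells.

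Of the 142 clusters, 96 had reads, 91 passed the filter of a mean of at least 10 counts over the 4 libraries, and 56 had a mean of at least 100. All 46 clusters without reads lie on the unplaced scaffold U. Of the 215 repeat elements, 210 had reads, 201 passed the filter and 168 had a mean of at least 100. The H3 libraries held 51227 and 49811 reads over clusters and 445973 and 411139 over elements, and the H3K23ac libraries held 22774 and 32901 reads over clusters and 199303 and 292071 over elements. Ratios are given as log2 of H3K23ac over H3 after TMM scaling within each table, a scaling that sets the typical feature of the table near 0, so that a ratio above 0 means more H3K23ac per H3 than at the typical cluster or element, and not more than at the rest of the genome. "Higher" and "lower" are used of features past an adjusted p of 0.05 in the quasi-likelihood test of edgeR.

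At piRNA clusters, H3K23ac relative to H3 spanned a wide range in enok_KD ovaries, with a fitted log2 ratio of −2.78 at cluster 9 and 2.36 at cluster 2, which is the 20A locus. Of the 91 clusters tested, 55 (60.4%) differed from the typical cluster, 30 of them higher (33%) and 25 lower (27.5%). Both H3K23ac libraries lay on the same side of both H3 libraries at 77 clusters (84.6%), above at 34 (37.4%) and below at 43 (47.3%). The split between higher and lower depended on the scaling. Cluster 92 took 19.2% and 18.8% of the cluster reads of the H3 libraries and 38.1% and 43.1% of those of the H3K23ac libraries, while cluster 9 took 16.7% and 20.6% of the former and 1.65% and 1.53% of the latter. With total counts in place of TMM the calls were 16 higher and 56 lower, with total counts taken without clusters 9 and 92 they were 18 higher and 52 lower, with the factors of the transposon table they were 14 higher and 57 lower, with only the clusters of at least 100 counts 19 higher and 29 lower, and with DESeq2 in place of edgeR 30 higher and 18 lower. The median over all clusters was −0.12 with TMM, −0.89 with total counts and −1.04 with the factors of the transposon table. A set of 14 clusters was higher (15.4%) and 22 were lower (24.2%) under TMM, total counts, DESeq2 size factors and the factors of the transposon table alike.

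**Figure D1:**
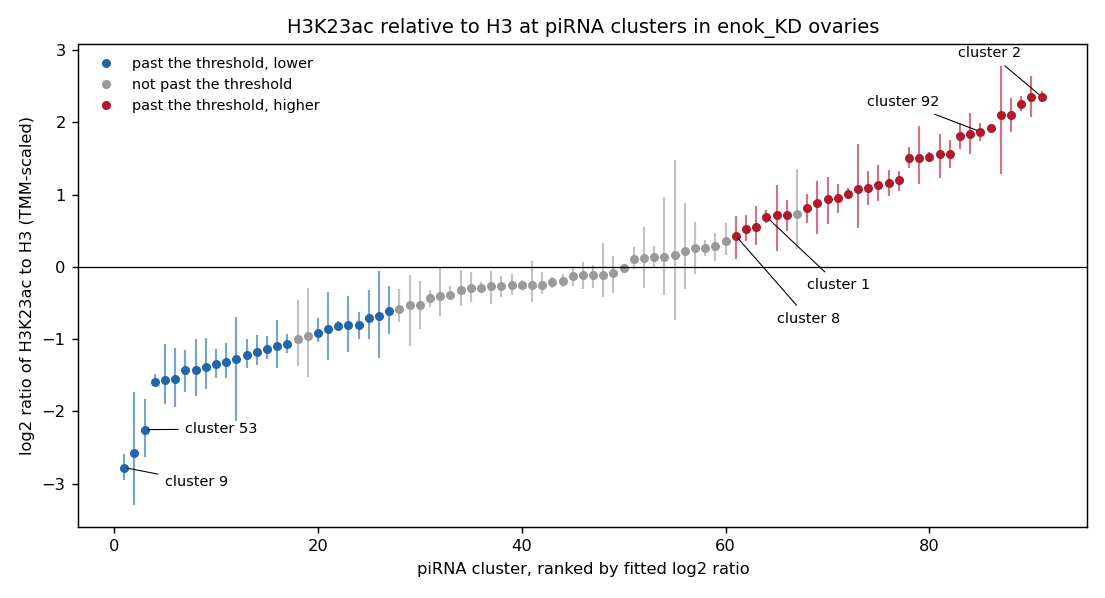
Fitted log2 ratio of H3K23ac to H3 (y axis, TMM-scaled) at the 91 piRNA clusters tested in enok_KD, ranked (x axis). Points are fitted ratios, vertical lines span the 4 ratios of each H3K23ac library to each H3 library, and colour marks the edgeR call. The 30 higher clusters reach 2.36 at cluster 2, and cluster 9 is lowest at −2.78.

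The clusters richest in H3K23ac were placed in several parts of the genome (dm3 coordinates as deposited). Cluster 2 (chrX:21392175-21431907), the 20A cluster, which is transcribed from 1 strand, had 266 and 271 H3 reads and 381 and 499 H3K23ac reads. Although the H3 libraries were the deeper ones, both H3K23ac counts exceeded both H3 counts. The fitted log2 ratio was 2.36 ± 0.18 (SE, n = 2 libraries per antibody), a 5.12-fold enrichment over the typical cluster (edgeR adjusted p = 9.37e-27). Cluster 107 (chr2L:21894816-21900308) had 257 and 206 H3 reads and 344 and 405 H3K23ac reads, with a log2 ratio of 2.35 ± 0.18. Cluster 79 (chr2L:22420341-22452436) followed with 522 and 478 H3 reads as compared with 615 and 934 H3K23ac reads and a log2 ratio of 2.26 ± 0.18. These 3 clusters were higher under every scaling tried, the lowest log2 ratios being 1.44, 1.43 and 1.34. Next were cluster 128 on chromosome arm 2R (2.11 ± 0.18), cluster 19 on X (2.10 ± 0.19), cluster 141 on 2L (1.92 ± 0.18), cluster 92 on XHet (1.87 ± 0.19) and cluster 48 on 3L (1.84 ± 0.17). That the H3K23ac and H3 libraries did not overlap was a condition for naming these clusters. Cluster 19 had the widest range of these, from 1.28 to 2.78 over the 4 ratios, with 75 and 114 H3 reads and 74 and 194 H3K23ac reads.

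Cluster 92 (chrXHet:170080-204036) was the cluster with the most reads, with 9816 and 9361 for H3 and 8677 and 14165 for H3K23ac. It is the only cluster of the XHet scaffold, and its 2 replicate ratios were 1.74 and 2.00. The other clusters with the most reads were cluster 9 and, among the acetyl-rich ones, cluster 3 on chromosome 4 (3568 and 3197 for H3, 1902 and 2247 for H3K23ac, log2 ratio 0.95 ± 0.18) and cluster 22 near the tip of X (3183 and 2772 for H3, 1862 and 2158 for H3K23ac, 1.09 ± 0.18). With the factors of the transposon table clusters 3 and 22 came to 0.03 and 0.17 and were not called. The subtelomeric repeat of X, cluster 4 (X-TAS, positions 1 to 9872), had 2218 and 2018 H3 reads and 1821 and 2152 H3K23ac reads. It was higher with a log2 ratio of 1.57 ± 0.18 and remained at 0.65 or more under every scaling.

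The cluster poorest in H3K23ac was cluster 9 (chrX:21759393-21844063), with 8552 and 10242 H3 reads and only 375 and 504 H3K23ac reads. Both H3K23ac counts were far below both H3 counts, and the fitted log2 ratio was −2.78 ± 0.19, or 0.146 times the typical ratio (edgeR adjusted p = 3.94e-30). Cluster 53 (chr3RHet:533743-579880) had 1966 and 1505 H3 reads and 113 and 118 H3K23ac reads, with a log2 ratio of −2.25 ± 0.19. Both clusters were lower under every scaling and without any single library. Cluster 70, also on 3RHet, had a ratio of −2.57 ± 0.69, but only 1 and 4 H3K23ac reads against 55 and 39 H3 reads, and the call was lost without either H3K23ac library. Lower ratios between −1.59 and −1.42 were found at cluster 55 on 3L (322 and 297 for H3, 28 and 38 for H3K23ac), cluster 71 on 2R, cluster 16 on 3RHet, cluster 51 on 2L and cluster 112 on 2R. Of these, the calls at clusters 71 and 112 rest on 5 and 9 and on 3 and 7 H3K23ac reads, and each was lost when an H3K23ac library was left out.

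Among the 4 major clusters with locus names, all were higher by the TMM scaling, although at 3 of them the call depends on the scaling. The dual-strand 42AB cluster, cluster 1 (chr2R:2144349-2386719), had 771 and 710 H3 reads and 327 and 441 H3K23ac reads, with a fitted log2 ratio of 0.69 ± 0.17 (edgeR adjusted p = 1.81e-04). The ratio was −0.08 with total counts and −0.23 with the factors of the transposon table. Cluster 8 (chrX:21505666-21684449), which corresponds to flamenco, had 382 and 415 H3 reads and 119 and 232 H3K23ac reads and a log2 ratio of 0.43 ± 0.17 (adjusted p = 0.0257 in edgeR). Its replicate ratios were 0.24 and 0.56. With total counts its ratio was −0.35 and with the factors of the transposon table −0.50, and it was called lower under both. Under TMM, leaving out H3K23ac replicate 2 gave 0.11 with no call. The call was also lost without either H3 library. Cluster 5 (chr2L:20148259-20227581), at 38C, had 241 and 272 H3 reads and 143 and 229 H3K23ac reads, and its log2 ratio of 1.16 ± 0.18 stayed above 0 under every scaling, although at 0.24 it was no longer called with the factors of the transposon table. The order of the named loci was therefore 20A, 38C, 42AB and flamenco, and the last pair differed by less than 2 SE of either value.

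Neighbouring clusters did not always share a ratio. Within 100 kb of each other lay 36 pairs of adjacent clusters, whose ratios differed by a median of 0.63 on the log2 scale, as compared with 1.12 over all pairs of clusters. In 4 of the 36 pairs the neighbours were called in opposite directions under TMM. The share of opposite calls over all pairs of clusters was not counted, so these pairs are described as single cases. On 2L, cluster 23 (chr2L:22369381-22420241) had 293 and 271 H3 reads and 37 and 45 H3K23ac reads, with a log2 ratio of −1.14 ± 0.21, while cluster 79, which starts 99 bp further on, had the ratio of 2.26 given above. On the other side of cluster 79, after 37.1 kb, cluster 31 had 445 and 400 H3 reads and 51 and 57 H3K23ac reads and a ratio of −1.32 ± 0.20. The acetyl-rich cluster 79 was thus flanked by acetyl-poor clusters on both sides, in both replicates. On X, flamenco and cluster 9 are separated by 74.9 kb and differed by 3.21 on the log2 scale, and 20A lies 73.8 kb before flamenco. On 3L, cluster 91 (54 and 41 H3 reads, 29 and 38 H3K23ac reads, 1.13 ± 0.31) and cluster 65 (297 and 254, 51 and 49, −0.81 ± 0.20) are separated by 30.7 kb. The calls at clusters 9, 23, 31, 65 and 79 held under every scaling, whereas those at flamenco and cluster 91 did not. Flamenco was called lower with total counts and with the factors of the transposon table, so that it and cluster 9 were then not opposed.

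**Figure D2:**
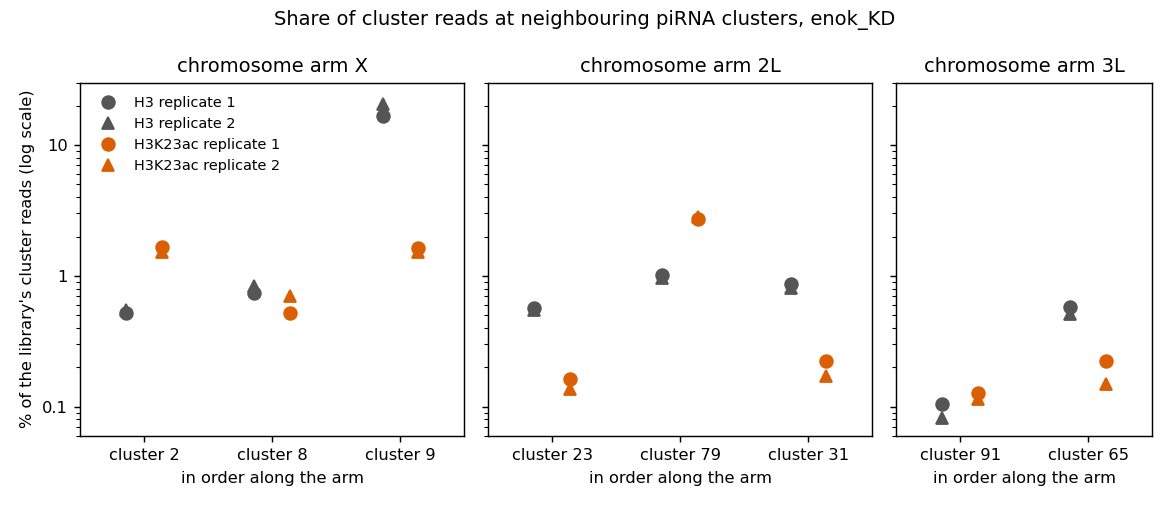
Share of each enok_KD library's cluster reads (y axis, %, log scale) at the clusters of the 4 neighbour pairs called oppositely under TMM and at cluster 2, in order along each arm. Grey points are H3 and orange points are H3K23ac, with circles for replicate 1 and triangles for replicate 2. At cluster 79 the H3K23ac share exceeds the H3 share, while at clusters 23 and 31 on either side it is below it. At cluster 8 (flamenco), called higher after TMM scaling, the H3K23ac shares also lie below the H3 shares.

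The chromosomal location of a cluster went with its ratio in part. Of the 7 clusters tested on X, 6 were higher and 1, cluster 9, was lower, and the median was 1.51 as compared with −0.12 over all clusters. The median stayed above 0 under every scaling, between 0.59 and 1.63. Of the 4 clusters on chromosome 4, 3 were higher, as compared with 33% of all clusters, with a median of 0.98, and cluster 106 had a ratio of −0.11 ± 0.19. With total counts the median of these 4 was 0.21 and it came to 0.06 with the factors of the transposon table, and clusters 3 and 78 were then not called. On the Het scaffolds, the assembled pieces of pericentric heterochromatin, 6 of 45 were higher and 12 lower, with a median of −0.26, where 33% of all clusters were higher and 27.5% lower, so that the share of lower clusters was near that of all clusters. The 17 clusters of 3RHet were the lowest group, with 8 lower, 1 higher and a median of −0.68, and at 15 of them both H3K23ac libraries were below both H3 libraries, where 47.3% of all clusters were. Cluster_137 was the higher one (60 and 61 H3 reads, 22 and 51 H3K23ac reads, 0.89 ± 0.28), and with the factors of the transposon table it was at −0.04. By contrast, 2 of 10 clusters on 2RHet were higher and 1 was lower, with a median of 0.19 that came to −0.72 with the factors of the transposon table. Arms 2R and 3L had medians of −0.53 and −0.25 and each held both higher and lower clusters.

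A list of clusters whose RNA fell in enok mutants was taken from the study, which made it from other libraries. It holds clusters 1, 5, 29 and 78, cluster_131 and cluster_137. Their median log2 ratio in enok_KD was 0.95, and 5 of the 6 were higher, as compared with 33% of all clusters. Cluster 29 on chromosome 4 had 653 and 750 H3 reads and 621 and 972 H3K23ac reads and the highest ratio of the list, 1.81 ± 0.18. Cluster 78, on the same chromosome, had 169 and 154 H3 reads and 86 and 124 H3K23ac reads and a ratio of 1.01 ± 0.19. Cluster_131 on 3LHet had a ratio of −0.29 ± 0.19 and was not called. The median of the list was 0.18 with total counts and 0.02 with the factors of the transposon table, against −0.89 and −1.04 over all clusters. A further list holds clusters 1, 5, 11, 29, 33, 42 and 78, picked out for a severe loss of piRNAs in the mutants. Of these 7, 6 were higher, with a median of 1.08 that came to 0.30 with total counts and 0.17 with the factors of the transposon table. The calls at clusters 1, 11 and 78 were lost under both of these scalings, and that at cluster 5 with the factors of the transposon table. Cluster 42 on 3R (353 and 323 for H3, 273 and 340 for H3K23ac) had a ratio of 1.51 ± 0.17 and was higher under every scaling. Cluster 11 had replicate ratios of 1.70 and 0.54 on 31 and 29 H3K23ac reads, and cluster 33 (0.27 ± 0.21) did not pass the test. Clusters 1, 5, 29 and 78 are on both lists, so the lists are not independent of each other.

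At repeat elements, the ratio ran from −4.04 at the satellite DMSAT6 to 2.03 at the 5S rRNA gene repeat. Of the 201 elements tested, 101 (50.2%) differed from the typical element, 46 higher (22.9%) and 55 lower (27.4%), and the libraries of the 2 antibodies did not overlap at 144 (71.6%). Without H3 replicate 1 the calls were 26 higher and 25 lower, and without H3K23ac replicate 2 they were 37 higher and 32 lower. Scaling mattered again, with 120 higher and 14 lower when the factors of the cluster table were used, which moved the median over all elements from −0.08 to 0.84, and 58 higher and 45 lower with no filter on low counts. Under all 4 scalings 43 elements were higher (21.4%) and 14 lower (6.97%). The medians given below for the Jockey, Gypsy and Pao families turned positive with the factors of the cluster table, as did those of the LTR and LINE classes as a whole, so that they are to be read against the median of all elements. Per the study's methods only reads with a unique position were kept, so copies of a repeat that are identical to each other do not contribute.

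**Figure D3:**
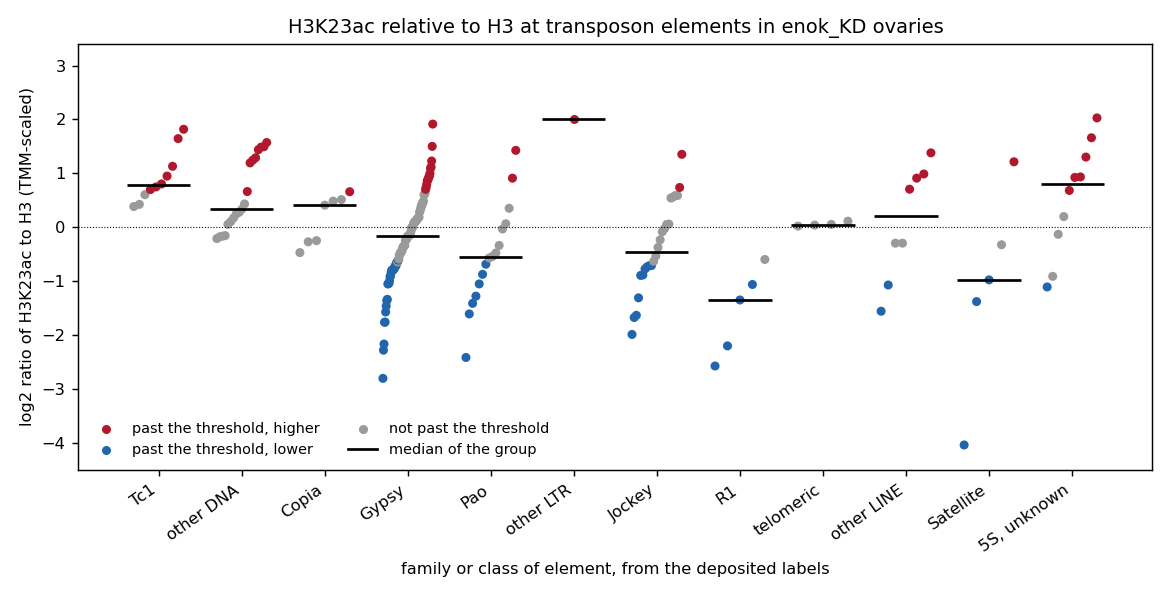
Fitted log2 ratio of H3K23ac to H3 (y axis, TMM-scaled) at the 201 elements tested in enok_KD, by family or class (x axis), with the edgeR call in colour and the group median as a black line. The Tc1 elements all lie above 0, the R1 elements all lie below 0, and the satellite DMSAT6 is lowest at −4.04.

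DNA transposons held many acetyl-rich elements. Of the 29 tested, 15 were higher, as compared with 22.9% of all elements, and none lower by edgeR (4 had a fitted ratio below 0, none past the threshold), with a median log2 ratio of 0.66 as compared with −0.08 over all elements and with at least 0.66 under the 4 scalings. The Tc1 group, which moves by a cut-and-paste transposase, had 7 of 10 higher, and both H3K23ac libraries lay above both H3 libraries at all 10 tested elements, against 33.3% of all elements. The foldback element FB4_DM, which the table labels Tc1, had 4650 and 5722 H3 reads and 7699 and 12153 H3K23ac reads, with a fitted log2 ratio of 1.64 ± 0.30 (edgeR adjusted p = 2.11e-05). Rehavkus-1_DY_Tc1 reached 1.82 ± 0.29 on 20 and 19 H3 reads and 36 and 48 H3K23ac reads. Its family label was added to the name here, since the deposited name Rehavkus-1_DY occurs more than once. BARI1 was higher at 0.75 ± 0.26. Of the P group, the entry PLACW_DM had 17 and 21 H3 reads and 39 and 28 H3K23ac reads and replicate ratios of 2.14 and 0.92, and the mean of 1.57 ± 0.32 fell to 0.94 without H3K23ac replicate 1 or rose to 2.19 without replicate 2. By contrast the Transib group had 1 of 7 higher, Transib-N1_DM, with 225 and 226 H3 reads, 205 and 447 H3K23ac reads and a ratio of 1.19 ± 0.27.

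Other elements of high ratio were of different kinds. The 5S rRNA gene repeat (5S_DM) had 1450 and 1147 H3 reads and 3001 and 3322 H3K23ac reads. The H3K23ac counts were above the H3 counts in both replicates, although those libraries were shallower, and the log2 ratio was 2.03 ± 0.30. T412LTR, the LTR entry of a retrotransposon, had 150 and 110 H3 reads and 260 and 387 H3K23ac reads and a ratio of 2.02 ± 0.28. The LTR of TRANSPAC reached 1.91 ± 0.27, the unclassified repeat DMRP1 1.66 ± 0.28 and the LTR of OSVALDO 1.5 ± 0.30, the last on 17 and 21 H3 reads and 26 and 40 H3K23ac reads. Of the elements with the most reads, the internal part of the LTR retrotransposon roo (ROO_I) took 8.07% and 8.18% of the element reads of the H3 libraries and 16.1% and 16.4% of those of the H3K23ac libraries (log2 ratio 0.91 ± 0.31). DNAREP1_DM, the abundant short repeat also known as INE-1, took 4.0% and 4.94% of H3 and 8.32% and 10.4% of H3K23ac (0.99 ± 0.30). Both were higher, and for both the share in each H3K23ac library was above that in each H3 library.

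Elements poor in H3K23ac were satellites, elements of the ribosomal DNA and internal parts of some LTR retrotransposons. DMSAT6 had 11201 and 8629 H3 reads and 357 reads in each H3K23ac library, with a log2 ratio of −4.04 ± 0.34, or 0.0608 times the typical ratio (edgeR adjusted p = 4.74e-13). SAR_DM, also a satellite and one of the elements with the most reads, had 31342 and 38372 H3 reads and 5202 and 11764 H3K23ac reads (−1.38 ± 0.31), and the Responder satellite RSP, the target of segregation distortion, had 351 and 516 H3 reads and 79 and 199 H3K23ac reads (−0.98 ± 0.28). These 3 of the 5 satellites were lower, HSATII was higher on 17 H3 reads in each library (1.21 ± 0.31), and HETRP_DM had a ratio of −0.33 ± 0.27. The median of the 5 was −0.98, and it came to −0.06 with the factors of the cluster table. R1_DM, a retrotransposon that inserts into the 28S rRNA gene, had 40774 and 29477 H3 reads and 3615 and 3305 H3K23ac reads and a ratio of −2.58 ± 0.33, and R1-2_DM had −2.20 ± 0.32. All 5 elements of the R1 family had a ratio below 0 and both H3K23ac libraries below both H3 libraries, as compared with 38.3% of all elements. Of these 5, 4 were lower, as compared with 27.4% of all elements, and the median was −1.35 (−0.42 with the factors of the cluster table). R2_DM, which inserts into the same gene, had 2804 and 2016 H3 reads and 1119 and 1228 H3K23ac reads, and its ratio of −0.30 ± 0.29 was not called.

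The internal parts of ROVER and NINJA were the lowest of the LTR retrotransposons. ROVER-I_DM had 10120 and 13155 H3 reads and 712 and 1362 H3K23ac reads and a log2 ratio of −2.80 ± 0.32, and NINJA_I had 5941 and 4315 H3 reads and 598 and 527 H3K23ac reads and −2.42 ± 0.32. Both entries of Gypsy8 were low, the LTR at −2.28 ± 0.29 and the internal part at −2.17 ± 0.31. Of the LINE elements, G_DM of the Jockey family had 1982 and 1527 H3 reads and 258 and 268 H3K23ac reads and −1.99 ± 0.29. All of these were lower under every scaling. In the Jockey family 10 of 24 elements were lower and 2 higher, with a median of −0.45, and in the Pao family, to which roo belongs, 7 of 16 were lower and 2 higher, with a median of −0.56, where 27.4% of all elements were lower and 22.9% higher. In the Gypsy family 28 of 92 were lower and 14 higher, with a median of −0.17, and its share of lower elements was near that of all elements.

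The telomeric retrotransposons, which maintain the chromosome ends of the fly, were close to the typical element. HETA had 15841 and 13182 H3 reads and 8414 and 9582 H3K23ac reads, with a log2 ratio of 0.05 ± 0.30. TAHRE (0.02 ± 0.27), TART (0.04 ± 0.30) and TART_B1 (0.11 ± 0.27) were likewise not called, the H3K23ac and H3 libraries overlapped at all 4, and the sign turned when H3 replicate 2 or H3K23ac replicate 1 was left out. A list of families whose RNA rose in enok mutants was also taken from the study and matched 9 elements by name. Of these 9, 3 were higher (BLOOD_LTR at 1.0 ± 0.27, BURDOCK_LTR at 0.95 ± 0.27 and BARI1) as compared with 22.9% of all elements, and none was lower by edgeR, with a median of 0.45 over the 9. The GATE family of that list matched no element by name and was left out of the count. The deposited labels give BATUMI_I the class LTR/GATE. It had 6886 and 5105 H3 reads and 1068 and 1305 H3K23ac reads, with a log2 ratio of −1.61 ± 0.30 that was called lower under every scaling. The LTR entry of BATUMI was at −0.87. The absence of lower elements thus holds only for the 9 matched by name. HETA and TAHRE belong to this list too. Of the 18 entries of gypsy-like families active in the somatic follicle cells, where piRNAs of flamenco act, 5 were lower and 1 higher. Of all elements 27.4% were lower and 22.9% higher, so that the share of lower entries was near that of all elements. The median of the 18 was −0.16, also close to that of all elements. Gypsy_I had 3274 and 2524 H3 reads and 924 and 1076 H3K23ac reads (−0.80 ± 0.29) and Gypsy10_I −1.0 ± 0.27, whereas QUASIMODO_LTR was higher at 0.93 ± 0.27. With the factors of the cluster table Gypsy_I turned to 0.13.

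In LTR retrotransposons, the ratio of the LTR, which carries the promoter, was often above that of the internal part of the same family. This comparison is within each library, so it does not depend on the scaling between antibodies. Of 53 families with both entries, 51 were compared, and the LTR was above the internal part in all 4 ratios of an H3K23ac to an H3 library in 27 (52.9%), the internal part above the LTR in 7 (13.7%), and the remaining 17 were mixed. The median difference was 0.49 on the log2 scale, or 0.41 in replicate 1 and 0.45 in replicate 2, and was between 0.38 and 0.49 when 1 library was left out. With 2 ratios in place of 4, the families with a higher internal part numbered 12 without either H3K23ac library. The 4 libraries allow no exact two-sided p below 0.333 for a single family, so the families are described with no test.

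The LTR exceeded the internal part most in OSVALDO, with a difference of 3.06, although on few LTR reads. In ROVER, the internal part had 10120 and 13155 H3 reads and 712 and 1362 H3K23ac reads while the LTR had 170 and 209 H3 reads and 85 and 180 H3K23ac reads. The difference was 2.94, with 2.83 and 3.06 in the replicates. NINJA followed at 1.91 and TRANSPAC at 1.24, with 83 and 102 H3 reads and 154 and 278 H3K23ac reads at the TRANSPAC LTR. At the other end, the internal part was above the LTR in ACCORD2 (−0.69), TIRANT (−0.62) and MDG1 (−0.57) in all 4 ratios, and in ACCORD (−0.55) in some of them. TIRANT had 512 and 508 H3 reads and 417 and 518 H3K23ac reads in the internal part and 219 and 220 H3 reads and 123 and 138 H3K23ac reads in the LTR. In GFP_KD the median difference over the same families was 0.15, with the LTR higher in 28 and the internal part higher in 10, and 20 families had the higher LTR in both knockdowns. The difference between the knockdowns was not tested.

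**Figure D4:**
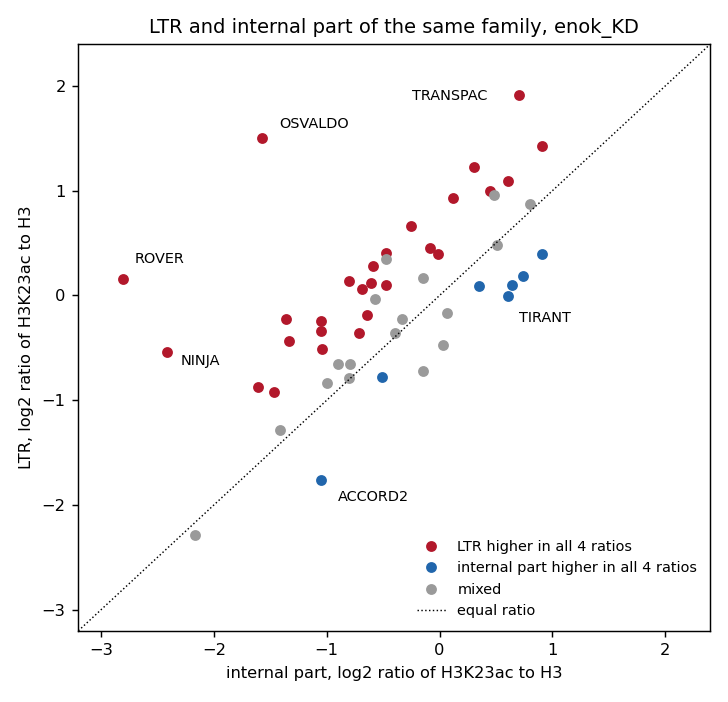
Log2 ratio of H3K23ac to H3 in enok_KD at the internal part (x axis) and the LTR (y axis) of 51 retrotransposon families, each point a family, coloured by whether all 4 ratios agree. The dotted line marks equal ratios. The 27 families with the higher LTR lie above the line, with ROVER and OSVALDO farthest from it, and 7 lie below it.

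The replicates agreed on most features. Across the 91 clusters the ratios of replicate 1 and replicate 2 had a Pearson correlation of 0.901, and across the 201 elements 0.949, as a description over features that share the libraries. The median gap between the 2 ratios was 0.24 on the log2 scale at clusters and 0.19 at elements, and 90% of the gaps were below 0.79 and 0.51. Gaps of more than 1 occurred at 6 clusters and 5 elements, none of them (0) with a mean of at least 100 counts. Counts of replicates differed by more than sampling noise, with a chi-square per degree of freedom of 5.30 for H3 and 4.43 for H3K23ac over clusters and 48.0 and 37.4 over elements, so that they were kept as separate libraries. Replicate 2 had the higher ratio at 144 of the 201 elements and at 53 of the 91 clusters.

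Among features with at least 100 counts, the widest gaps were at clusters 16, 24, 51 and 28 and at 4 elements. Cluster 16 had 281 and 271 H3 reads and 33 and 27 H3K23ac reads, with ratios of −1.15 and −1.90. Cluster 24 had 357 and 450 H3 reads and 27 and 82 H3K23ac reads, with −1.78 and −1.05, and its ratio came to −0.94 without H3K23ac replicate 1 and −2.05 without replicate 2. Both clusters were below the typical cluster in either replicate, as was cluster 51 (−1.73 and −1.15), while cluster 28 was at −0.36 and 0.15. Of the elements, the LTR of IDEFIX, a gypsy-like family of the follicle cells, had 386 and 455 H3 reads and 146 and 466 H3K23ac reads, and its ratio was −0.44 in replicate 1 and 0.55 in replicate 2. TV1I had −1.32 and −0.44, TOM_I −0.93 and −0.17, and Transib-N1_DM 0.83 and 1.5, so that in these 4 elements replicate 2 was the higher.

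The ratios of enok_KD were set against those of GFP_KD, with all 8 libraries scaled together, to find where the ratio differed from the control. Much of the pattern was present in both knockdowns. Over 93 clusters the mean ratios of both knockdowns had a Pearson correlation of 0.886 and over 203 elements 0.894, and the sign differed at 9 clusters and 31 elements. Of the 10 highest clusters in enok_KD, 6 were among the 10 highest in GFP_KD, and of the 10 lowest, 5. At 20A the ratios were 2.38 and 2.25 in enok_KD and 2.27 and 2.29 in GFP_KD, with a difference of 0.04 ± 0.18 (SE). At 42AB the difference was 0.32 ± 0.17 (edgeR adjusted p = 0.255), at flamenco −0.03 ± 0.19 and at 38C −0.44 ± 0.19 (adjusted p = 0.113 in edgeR), none past the threshold.

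The test of the difference was past the threshold at 12 of 93 clusters (12.9%), 4 with a higher ratio in enok_KD (4.30%) and 8 with a lower ratio (8.60%). Cluster 9, the lowest in enok_KD, had ratios of −2.64 and −2.97 in enok_KD and −1.60 and −1.53 in GFP_KD, where it had 6925 and 7292 H3 reads and 846 and 655 H3K23ac reads. The enok_KD replicates were both below those of GFP_KD, and the difference was −1.25 ± 0.17 (edgeR adjusted p = 5.91e-11). Errors of the differences come from a spread shared by both knockdowns. At cluster 9 the SE of the difference is below the 0.19 of the enok_KD ratio alone, so errors of the differences may be understated. The share of H3 reads at cluster 9 was also larger in enok_KD, 16.7% and 20.6% as compared with 10.9% and 10%. Cluster 92 had ratios of 1.69 and 1.97 in enok_KD and 0.78 and 0.76 in GFP_KD, a difference of 1.06 ± 0.16 (edgeR adjusted p = 1.60e-09). Both calls held without any single library, with DESeq2 and with total counts.

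Cluster 24 had ratios of −1.84 and −1.07 in enok_KD and −0.16 and −0.08 in GFP_KD, and its difference of −1.17 ± 0.23 was not called without enok_KD H3K23ac replicate 1. Cluster 53 was also lower in enok_KD, by −0.83 ± 0.20, and cluster 106 on chromosome 4, at −0.32 and −0.02 in enok_KD and 0.69 and 0.70 in GFP_KD, by −0.84 ± 0.22. Of the 7 clusters selected for lower piRNAs 2 were lower, cluster 33 on 2L (0.10 and 0.35 as compared with 1.11 and 1.24, a difference of −0.94 ± 0.24) and cluster 78 (0.89 and 1.06 as compared with 1.69 and 1.43, −0.57 ± 0.21, adjusted p = 0.0473 in edgeR). Clusters 51 (−0.89 ± 0.28) and 27 (−0.69 ± 0.21) completed the 8. The clusters higher in enok_KD beside cluster 92 were cluster 47 (0.62 ± 0.20), X-TAS (0.50 ± 0.16) and cluster 79 (0.48 ± 0.17), none of which passed with total counts. Cluster 79 and the neighbours 23 and 31 kept their opposite signs in GFP_KD, at 1.69 and 1.79 for cluster 79, −0.75 and −0.93 for cluster 23, and −1.16 and −1.18 for cluster 31. The number of clusters past the threshold was 7 without enok_KD H3K23ac replicate 2 and 5 without GFP_KD H3 replicate 2, and it was 6 with DESeq2, 3 in each direction. With total counts 1 was higher and 17 lower, and with a mean of at least 100 counts 5 were higher and 3 lower, so that the excess of lower over higher calls depended on the setting. The 4 higher calls came to 1 or 2 without any single library other than replicate 1 of enok_KD H3 or H3K23ac, and the 8 lower calls to between 4 and 7.

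In the fit without a replicate block no element passed the test of the difference by edgeR (0 of 203, 0%). That count rose when same-numbered libraries were treated as pairs, as given in the last section, so it does not show that the elements were unchanged. Deviations of same-numbered libraries correlated at 0.72 over elements, although the labels state no pairing. In the fit without a block 29 elements had an unadjusted p under 0.05, 19 higher and 10 lower, and DESeq2 called 5. Without enok_KD H3K23ac replicate 2, 10 were higher and 12 lower. The smallest adjusted p was 0.129, shared by elements that include RSP and DMSAT6, R2_DM and T412LTR. RSP had ratios of −0.96 and −0.83 in enok_KD and 0.30 and 0.67 in GFP_KD (difference −1.34 ± 0.36), and DMSAT6 had −3.79 and −4.05 as compared with −2.76 and −2.80 (−1.13 ± 0.29). At R2_DM the order was the reverse, with −0.14 and −0.18 in enok_KD and −1.21 and −1.43 in GFP_KD (1.16 ± 0.29), while R1_DM differed by −0.16 ± 0.34. T412LTR had 1.97 and 2.35 in enok_KD and 0.85 and 1.15 in GFP_KD (1.14 ± 0.26). At these elements other than R1_DM the replicates of the knockdowns did not overlap. Those elements were named here for sharing the smallest adjusted p, so this adds no support. The share of all elements without overlap was not counted. The differences had a median of −0.93 over the 5 satellites and 0.05 over all elements.

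**Figure D5:**
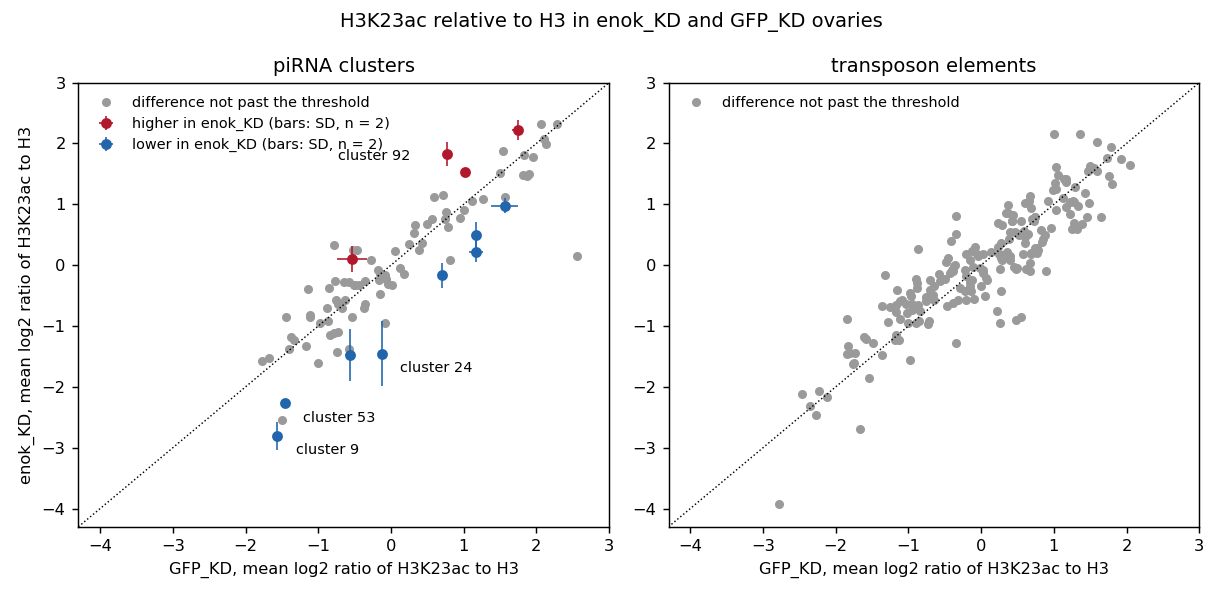
Mean log2 ratio of H3K23ac to H3 in GFP_KD (x axis) and enok_KD (y axis) at 93 piRNA clusters (left) and 203 elements (right), with all 8 libraries scaled together. Coloured points passed the edgeR test of the difference and have bars of 1 SD over 2 replicates. Clusters 9, 24 and 53 are among the 8 below the dotted line of equal ratios that passed, and cluster 92 is among the 4 above it. No element passed in this fit, which has no replicate block, and elements did pass with one.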

How the data were processed

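The single-end reads were mapped by the authors with Bowtie2 to dm3 without mismatches, and reads with more than 1 position were dropped, as the study's methods state. The submitters' processing notes name Trimmomatic, Bowtie2 2.2.1 and bedtools, with no role given. The deposited values are raw read counts per piRNA cluster and per repeat element, whole numbers with no normalization and not pooled over replicates. The treatment of duplicates, the counting program and the repeat annotation are not given in the sources used here, and reads of repeats within clusters may have been counted in both tables. The cluster tables also hold the authors' own DESeq2 comparison of the knockdowns for each antibody (mean, log2 fold change, standard error, test statistic and p-values), which was not used. There were 0 columns of library values without a library, in 4 tables.

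The H3 and H3K23ac counts of each feature were put side by side. Features with a mean of at least 10 counts over the 4 enok_KD libraries entered edgeR 4.0.16 (limma 3.58.1, R 4.3.3) and its quasi-likelihood test, with H3K23ac against H3, TMM factors of each table and Benjamini-Hochberg adjustment over the table at 0.05. The difference between knockdowns was the interaction in a fit of 8 libraries with a mean of at least 10 counts, which kept 93 clusters and 203 elements. Errors after ± are standard errors of the fit. Ratios of single libraries used an offset of 0.5 counts, and a replicate ratio sets libraries of the same number against each other. The biological coefficient of variation was 0.0962 at clusters and 0.184 at elements in the enok_KD fits. In the fits of 8 libraries it was 0.0657 and 0.129. These share the spread between both knockdowns, and the enok_KD libraries alone varied more. The errors and p-values of the differences may therefore look more certain than they are. Tested on simulated data for H3K23ac over H3 in enok_KD, the fit recovered 100% of clusters and 88.3% of elements changed by 1 on the log2 scale, with 0% and 2.13% of the others called. The simulation changed 30 of 91 clusters and 60 of 201 elements, balanced between directions. It used 1 common spread for all features of a table and no effect shared by replicates. It therefore cannot show how the calls fare under the scaling and replicate effects of the real libraries.

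The labels do not say whether replicates came from separate flies, so p-values reach no further than the spread between these libraries. At clusters the fit used a spread pooled over the clusters tested. The SE and p-value of a cluster therefore do not measure its own replicate spread. At elements the spread of each was drawn toward the pooled one. An exact two-sided test of 2 against 2 cannot go below p = 0.333. Alternatives were total counts, DESeq2 size factors, factors of the other table, a stricter filter (mean of 100 counts) or no filter, all 8 libraries in the fit, DESeq2 1.42.0, limma voom, the replicate number as a block, an offset of 5 for the LTR comparison, and leaving out each library. Total counts without clusters 9 and 92 were added after seeing the data. Features named were, per table, the 8 highest and 8 lowest called with libraries that did not overlap, members of the lists, the 4 widest replicate gaps at a mean of at least 100, the 4 with the most reads, up to 4 in each direction that differed from GFP_KD, and the 4 largest and 4 smallest differences between LTR and internal part. Clusters 23, 31, 65 and 91, neighbours called in opposite directions, clusters 27, 53 and 106 among the differences, and both BATUMI entries were named after their values were seen. The members and lists were chosen with earlier results of these data known.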

Additional observations from a re-analysis of the deposited data

Results flagged for a closer look

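At 12 piRNA clusters the log2 ratio of H3K23ac to H3 differed between enok_KD and GFP_KD by the interaction test of edgeR at an adjusted p under 0.05. That test shares the spread between both knockdowns, which may understate the error. The difference, enok_KD minus GFP_KD on the log2 scale, was −1.25 at cluster 9, −1.17 at cluster 24, −0.94 at cluster 33, −0.89 at cluster 51, −0.84 at cluster 106, −0.83 at cluster 53, −0.69 at cluster 27 and −0.57 at cluster 78. It was 0.48 at cluster 79, 0.50 at cluster 4 (X-TAS), 0.62 at cluster 47 and 1.06 at cluster 92. Clusters 9 and 92 were past the threshold in every alternative run for this difference.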

How the results depend on the processing

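Ratios are relative to the typical feature of a table of few features, no input was used, and the shallowest H3K23ac library held 22774 cluster reads, so that clusters under about 100 counts had replicate gaps with a median of 0.46 as compared with 0.18 above that. With the factors of the transposon table the log2 ratio turned to −0.23 at cluster 1, −0.50 at cluster 8, −0.040 at cluster_137, −0.66 at cluster 33, −0.80 at cluster 47 and −0.41 at cluster 27. With total counts it turned to −0.081, −0.35, −0.51, −0.64 and −0.26 at clusters 1, 8, 33, 47 and 27, and with total counts without clusters 9 and 92, chosen after seeing the data, to −0.23, −0.39, −0.53 and −0.14 at clusters 8, 33, 47 and 27. Cluster 47 was at −0.22 with a mean of at least 100 counts, cluster 28 at 0.030 with DESeq2 size factors and 0.027 with DESeq2, and cluster 106 at 0.0031 with DESeq2 size factors. With the factors of the cluster table TV1I turned to 0.16, TOM_I to 0.47, HETRP_DM to 0.59, R2_DM to 0.63 and Gypsy_I to 0.13. The calls were 31 higher and 22 lower at clusters with DESeq2 size factors, and at elements 48 and 45 with total counts, 51 and 48 with DESeq2 size factors and 50 and 45 with DESeq2.

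Leaving out a library in turn, the ratio ranged from −0.35 to 0.034 at cluster 28, −0.0051 to 0.28 at cluster 47, −0.36 to 0.53 at IDEFIX_LTR, −0.21 to 0.38 at HETA, −0.18 to 0.30 at TAHRE, −0.28 to 0.40 at TART, −0.37 to 0.60 at TART_B1 and −0.59 to 0.057 at R2_DM. The elements called ranged from 51 (without enok_KD H3 replicate 1) to 95, the clusters that differed between knockdowns from 5 to 10 and the elements that did from 0 to 22. DESeq2 called a difference between knockdowns at 6 clusters and 5 elements. The median of LTR minus internal part was 0.45 with at least 100 counts in both parts and 0.38 to 0.49 without 1 library.

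With the replicate number as a block, 56 clusters and 143 elements were called, and 13 clusters and 65 elements differed between knockdowns, where the fit without it gave 55, 101, 12 and 0. The labels do not state a pairing, and the deviations of same-numbered libraries correlated at 0.016 over clusters and 0.72 over elements, from 2 pairs, so that the block was not used in the report. The causes were not tested. Of the other alternatives for named features, 455 at clusters and 436 at elements kept direction and call, 36 and 28 lost the call and 13 and 9 gained it, and of those for the 12 differences 94 kept the call and 50 lost it.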
